A study of Mus musculus with 6 samples.

Results

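The transforming growth factor beta (TGF-beta) ligands Tgfb1, Tgfb2 and Tgfb3, the latent binding proteins Ltbp1, Ltbp2, Ltbp3 and Ltbp4, and the matricellular genes Thbs1, Ccn1 and Ccn2 were examined in the atria of old mice. The 10 genes were chosen by name, from a table of 54838 genes, and all 10 were among the 14708 genes tested. The data are RNA sequencing counts from 6 atrial libraries, each labelled as a separate mouse, from a study of knockout (KO) of protein kinase C epsilon (gene Prkce) against wild type (WT) at old age. Mean age is labelled as 20.9 ± 0.43 months, with the kind of error not stated, and both sexes were used. By the genotype and line fields, KO mice were of JAX stock #004189 and WT mice of C57BL/6J, 3 libraries each.

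TGF-beta is made as a precursor whose cut propeptide stays wrapped around the growth factor and keeps it latent. Latent TGF-beta binding proteins other than LTBP2 are disulphide-linked to that propeptide and tie the complex to fibrillin and fibronectin in the matrix, from which integrins, proteases or thrombospondin 1 can free it. The freed ligand signals through type I and II receptors and SMAD proteins, and is best known in the atrium as a driver of fibroblast activation and collagen deposition. Ccn1 and Ccn2 encode secreted matrix-associated proteins of the CCN family, both induced quickly by TGF-beta, stretch and the YAP and SRF transcription pathways.

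For 4 of the 6 libraries the genotype in the library name differs from that in the title, the genotype field and the mouse line, so each comparison is given in both readings. Libraries are named here by library name: KO replicates 1, 2 and 3 and WT replicates 1, 2 and 3. The genotype field says KO for KO replicate 1 and for WT replicates 2 and 3, and it says WT for KO replicates 2 and 3 and for WT replicate 1. Prkce itself had 9.20, 5.15 and 28.6 CPM (the count scaled to library size) in the libraries labelled KO replicate 1, 2 and 3, against 36.2, 11.7 and 30.2 CPM in those labelled WT replicate 1, 2 and 3. KO replicate 3 and WT replicate 2 therefore go against their library names, and KO replicate 2 and WT replicate 3 go against their genotype fields. Every direction below is one between labels, and in each reading the level of the targeted gene contradicts 2 of the 6. Total counts ran from 11574206 to 24138824 per library. The summed level of 4 Y-linked genes was 78.9 to 146 CPM in 4 libraries and 1.08 and 1.09 CPM in WT replicates 1 and 2. All libraries labelled KO were thus high, so by library name the label is partly confounded with Y-linked level. By genotype field the low libraries fall in both groups, WT replicate 1 with the field WT and WT replicate 2 with the field KO. All 6 atrial myocyte markers, among them the atrial light chain Myl7, were detected. Their summed level was 27697 to 32653 CPM with the label KO and 25649 to 29681 CPM with the label WT. By genotype field it was 28741 to 32481 CPM with KO and 25649 to 32653 CPM with WT.

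The 10 genes lie on 8 chromosomes (GRCm38). The annotation places Tgfb1 (ENSMUSG00000002603) on chromosome 7 from 25687002 to 25705077 and Tgfb2 (ENSMUSG00000039239) on chromosome 1 from 186622792 to 186705989. It places Ltbp2 (ENSMUSG00000002020) on chromosome 12 from 84783212 to 84876532, Ltbp3 (ENSMUSG00000024940) on chromosome 19 from 5740904 to 5758532 and Ltbp4 (ENSMUSG00000040488) on chromosome 7 from 27305136 to 27337692. Thbs1 (ENSMUSG00000040152) lies on chromosome 2 from 118111876 to 118127133, and Ccn1 (ENSMUSG00000028195) on chromosome 3 from 145646976 to 145649981. Ltbp1 (ENSMUSG00000001870, chromosome 17, 75005568 to 75392512) is on the chromosome of Prkce and ends 10.8 Mb before it. Timp1, Cavin2, Thbs3, Tcf21 and Chad, named further on, are listed at 0 in every library, and 0% of their gene bodies is free of other genes; the library kit marks no strand. Of the 10 genes, 8 have at least 96.1% of the gene body free of other annotated genes. Ccn2 (ENSMUSG00000019997, chromosome 10, 24595442 to 24598683) has 48.6% of its body free, the rest being shared with Gm15270 on the other strand, which had 11 to 81 counts per library. Tgfb3 (ENSMUSG00000021253, chromosome 12, 86056745 to 86079041) has 72.4% free and overlaps Ttll5 on the other strand, which had 182 to 380 counts. Levels of Ccn2 and Tgfb3 may therefore rest on part of their reads. The lowest count of a member in any library was 125, for Tgfb3.

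Per length of exon, the 2 CCN genes and Ltbp4 stood above the ligands. Ccn2 averaged 369 ± 82.1 CPM per kb (SD over 6 libraries), Ccn1 147 ± 38.5 and Ltbp4 65.4 ± 18.8 CPM per kb. These 3 lay in that order in 6 of 6 libraries, with ranges that do not overlap each other or the next gene. Below them came Thbs1 at 14.2 ± 14.4, Ltbp3 at 8.69 ± 1.28, Tgfb1 at 6.72 ± 0.647, Ltbp1 at 5.78 ± 0.542, Tgfb2 at 5.61 ± 1.51, Tgfb3 at 3.50 ± 0.633 and Ltbp2 at 2.29 ± 1.11 CPM per kb. From Thbs1 downward each gene overlapped its neighbour in range over the libraries. Within libraries, Ltbp3 exceeded Tgfb1 and Tgfb2 exceeded Tgfb3 in 6 of 6, Tgfb1 exceeded Ltbp1 and Tgfb3 exceeded Ltbp2 in 5 of 6, Ltbp1 exceeded Tgfb2 in 4 of 6, and Thbs1 exceeded Ltbp3 in 3 of 6. Dividing the same counts by only the exon length free of other genes left the order as it was. Reads were not recounted, so this cannot show whether overlap with other genes moved the order.

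**Figure D1:**
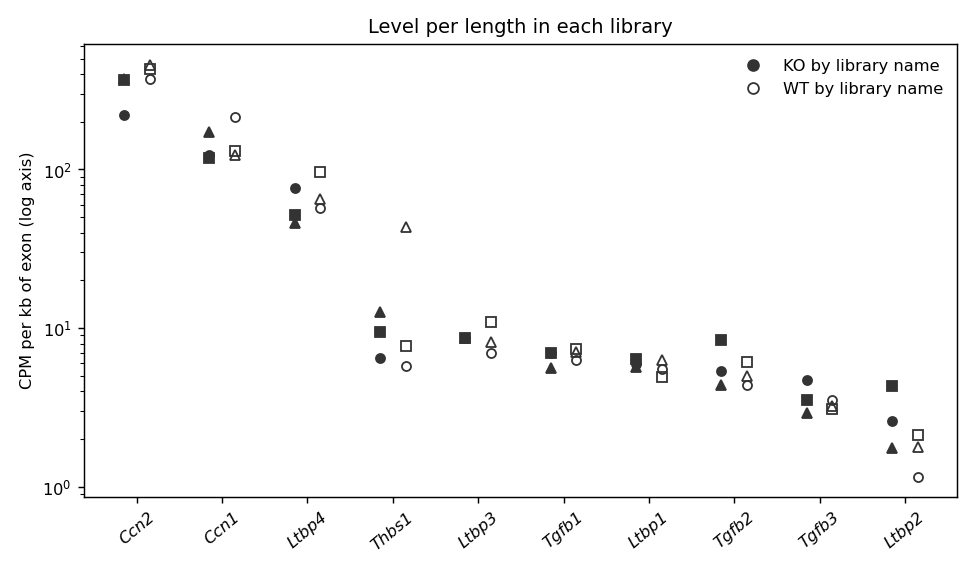
CPM per kb of exon (log axis) for each of the 10 genes, with 1 symbol per library (circle, square and triangle for replicates 1, 2 and 3), filled for libraries labelled KO and open for those labelled WT by library name. Ccn2, Ccn1 and Ltbp4 form separate bands at the top, and the open triangle of Thbs1 at 43.1 CPM per kb is WT replicate 3.

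Among the ligands, the per-length share of Tgfb1 was 37.0% to 46.3%, that of Tgfb2 30.8% to 44.3% and that of Tgfb3 18.7% to 27.6% over the 6 libraries. Tgfb1 led in 5 libraries, and in KO replicate 2 Tgfb2 was 1.20 times Tgfb1 per kb. Among the binding proteins Ltbp4 took 72.7% to 84.3%, Ltbp3 9.27% to 14.1%, Ltbp1 4.31% to 9.14% and Ltbp2 1.64% to 6.09%. Summed per kb, the 4 binding proteins exceeded the 3 ligands by 3.77 to 6.93 times, lowest in KO replicate 2 and highest in WT replicate 2.

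Tgfb1, the ligand made by many cell types including platelets and macrophages, varied little between atria. It had 35.1, 35.2 and 28.2 CPM in the libraries labelled KO replicate 1, 2 and 3, against 31.9, 37.0 and 35.8 CPM in those labelled WT replicate 1, 2 and 3. The groups overlap, and KO replicate 3 was lowest of all 6. Its log2 fold change (KO over WT) was -0.09 (standard error SE 0.16, 95% interval -0.43 to 0.26) by library name and 0.18 (SE 0.14, -0.13 to 0.49) by genotype field. Its highest library was 1.31-fold above its lowest, while the median over all genes tested was 1.65-fold.

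Tgfb2, the ligand of heart valve and cushion development, was highest in KO replicate 2. It had 31.2, 48.5 and 25.3 CPM in the libraries labelled KO replicate 1, 2 and 3, against 25.3, 35.4 and 29.0 CPM in those labelled WT replicate 1, 2 and 3. The groups overlap in both readings. The log2 fold change was 0.23 (SE 0.24, -0.30 to 0.75) by library name and -0.05 (SE 0.25, -0.59 to 0.50) by genotype field. Without KO replicate 2 it was -0.08 by library name and 0.33 by genotype field. Without the libraries at odds with Prkce it was 0.55 (SE 0.24) by library name and 0.39 (SE 0.19) by genotype field, with adjusted p = 0.999 and 0.837 in edgeR's quasi-likelihood test.

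Tgfb3, which shares the receptors of the other ligands, had 15.9, 12 and 9.89 CPM in the libraries labelled KO replicate 1, 2 and 3, against 11.9, 10.5 and 10.9 CPM in those labelled WT replicate 1, 2 and 3. KO replicate 1 was high, and the other 5 lay close together. Its log2 fold change was 0.18 (SE 0.22, -0.31 to 0.67) by library name and 0.15 (SE 0.22, -0.32 to 0.62) by genotype field.

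Ltbp2, which binds fibrillin 1 but, unlike its relatives, does not bind latent TGF-beta, had the widest range of the binding proteins. It had 21.2, 35.5 and 14.3 CPM in the libraries labelled KO replicate 1, 2 and 3, against 9.48, 17.3 and 14.6 CPM in those labelled WT replicate 1, 2 and 3. KO replicate 2 was highest and WT replicate 1 lowest, and the groups overlap through KO replicate 3. The log2 fold change by library name was 0.78 (SE 0.33, 0.04 to 1.52), with an unadjusted p of 0.0415 and adjusted p = 1.00 in edgeR's test. By genotype field it was -0.15 (SE 0.45, -1.19 to 0.89), so the direction differed between the readings. Without the libraries at odds with Prkce it was 1.23 (SE 0.31) by library name and 0.68 (SE 0.27) by genotype field, and neither passed. Without KO replicate 2 it was 0.37 by library name and 0.57 by genotype field.

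The 250 bases before the RefSeq start (GRCm38.p6) of Tgfb2 and Ltbp2 are shown because KO replicate 2 stood furthest above the mean for both (0.62 and 1.04 in log2 CPM; Ltbp1, also highest there, stood 0.16 above), with matches to the searched motifs in capitals.
Tgfb2, chr1:186705990-186706239, minus strand: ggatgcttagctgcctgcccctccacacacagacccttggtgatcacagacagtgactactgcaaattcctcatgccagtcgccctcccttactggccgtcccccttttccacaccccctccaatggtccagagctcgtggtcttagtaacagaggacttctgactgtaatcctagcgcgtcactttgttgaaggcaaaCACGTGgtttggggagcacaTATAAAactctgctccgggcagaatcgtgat
Ltbp2, chr12:84876492-84876741, minus strand: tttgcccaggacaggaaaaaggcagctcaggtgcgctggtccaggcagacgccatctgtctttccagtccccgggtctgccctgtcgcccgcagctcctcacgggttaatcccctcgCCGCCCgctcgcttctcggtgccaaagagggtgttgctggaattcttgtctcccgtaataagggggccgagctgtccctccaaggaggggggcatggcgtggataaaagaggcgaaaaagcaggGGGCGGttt
In the Tgfb2 window the capitals are an E-box (CACGTG, 51 to 46 bases before the start) and a TATA box (TATAAA, 31 to 26 bases before it). In the Ltbp2 window they are GC boxes (GGGCGG), one on each strand. On either strand, an E-box is in 6.02%, a TATA box in 12.4% and a GC box in 32.7% of 32851 such windows, and the motifs found do not overlap each other. The 2 windows share none of the searched motifs. The others searched were CRE (TGACGTCA), AP-1 (TGANTCA), TEAD (GGAATG) and the SMAD palindrome (GTCTAGAC), and none of these letters is in either window.

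Ltbp4, abundant in elastic fibres of heart, lung and vessel, was the member whose groups by genotype field did not overlap. The libraries with the field KO had 496, 626 and 418 CPM (KO replicate 1, WT replicate 2 and WT replicate 3), against 335, 296 and 368 CPM where the field says WT (KO replicate 2, KO replicate 3 and WT replicate 1). Every library with the field KO lay above every library with the field WT. The log2 fold change was 0.63 (SE 0.17, 0.24 to 1.01), with an unadjusted p of 0.00423 and adjusted p = 0.748 in edgeR's test, so it did not pass. Over its alternatives the adjusted p ran from 0.0935 to 1.00 and the log2 fold change from 0.45 to 0.75. Of all genes tested, 7.48% had every library with the field KO above every other. By library name the groups overlap, and the log2 fold change was -0.33 (SE 0.24, -0.86 to 0.21), the opposite direction. Without WT replicate 2 that value was -0.06. The summed level of 6 ventricular myocyte markers, all detected, was 965 to 1140 CPM with the field KO and 609 to 925 CPM with the field WT. The light chains Myl2 (log2 fold change 3.09, adjusted p = 0.00386 in edgeR) and Myl3 (1.20, adjusted p = 0.213) parted the same libraries, and so did the transcription factor Irx4, too low to be tested, with 10, 11 and 11 reads against 1, 1 and 0. The other 3 markers did not: Myh7 had -0.30, Hey2 0.07 and Fhl2 0.01. Their part in the level of Ltbp4 was not tested.

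Ltbp1 and Ltbp3, which bind the propeptides of TGF-beta, had overlapping groups in both readings. Ltbp1 had 63.1, 68.7 and 60.4 CPM in the libraries labelled KO replicate 1, 2 and 3, against 58.6, 52.9 and 67.1 CPM in those labelled WT replicate 1, 2 and 3. Its log2 fold change was 0.10 (SE 0.15, -0.21 to 0.42) by library name and -0.03 (SE 0.14, -0.34 to 0.28) by genotype field. Ltbp1 had the narrowest range of the 10, 1.3-fold between its highest and lowest library. Ltbp3 had 79.0, 78.6 and 78.9 CPM in the libraries labelled KO replicate 1, 2 and 3, against 63.1, 99.1 and 74.3 CPM in those labelled WT replicate 1, 2 and 3. The libraries labelled KO lie within the range of those labelled WT. Its log2 fold change was 0.00 (SE 0.17, -0.37 to 0.38) by library name and 0.19 (SE 0.15, -0.15 to 0.53) by genotype field.

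Thbs1, the thrombospondin that can release latent TGF-beta and is stored in platelets, was high in a single atrium. It had 39.3, 57.0 and 77.0 CPM in the libraries labelled KO replicate 1, 2 and 3, against 35.1, 47.0 and 262 CPM in those labelled WT replicate 1, 2 and 3. WT replicate 3 had 5967 reads of it and was 7.43-fold above the lowest library, a range wider than that of 98.3% of all genes tested. KO over WT, the log2 fold change was -0.99 (SE 0.89, -3.28 to 1.29) by library name and 1.04 (SE 0.85, -1.13 to 3.22) by genotype field. Without WT replicate 3 it was 0.50 by library name and -0.39 by genotype field, so that library sets the direction in both readings. With Y-linked expression as a covariate it was -2.18 (SE 0.31, adjusted p = 0.0822 in edgeR, the lowest over its alternatives, the highest being 1.00) by library name, a setting in which WT replicate 3 is the one library labelled WT with Y-linked levels like those labelled KO.

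Platelet markers, all 6 detected, summed to 55.5 CPM in WT replicate 3, of which Pf4 made up 43.0 CPM, against 42.3 to 53.6 CPM with the label KO and 47.0 and 61.9 CPM in WT replicates 1 and 2. Gp9, Ppbp and Tubb1 were highest in WT replicate 1. The 15 immediate early genes, transcription factors and feedback genes that tissue handling can induce, summed to 1665 CPM in WT replicate 3, 1661 CPM in KO replicate 3 and 1628 CPM in WT replicate 1. The median of their centred log2 CPM was highest in WT replicate 3, at 0.25, where the other libraries had -0.35 to 0.10. Of the 15, 6 were highest there, Egr3, Fosb, Fosl2, Klf4, Myc and Nr4a1, among them Fosl2 with 155 CPM where the other libraries had 57.4 to 101 CPM. The part of either list in the level of Thbs1 was not tested. The genes whose pattern over the 6 libraries was closest to Thbs1 were the mitochondrial oxidase subunit mt-Co3, the myeloid lectin Clec4d and the metallothionein Mt2. Their centred log2 CPM differed from that of Thbs1 by a root mean square of 0.25, 0.32 and 0.38, where the median over 10531 genes was 0.99. In WT replicate 3 they stood 1.71, 1.68 and 1.62 above their own means on the log2 scale, and Thbs1 stood 2.01 above its own.

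Ccn1, a quickly induced matricellular protein, was highest in WT replicate 1. It had 250, 238 and 346 CPM in the libraries labelled KO replicate 1, 2 and 3, against 433, 265 and 248 CPM in those labelled WT replicate 1, 2 and 3. KO replicate 3 was second, and the other 4 lay between 238 and 265 CPM. By genotype field the libraries with the field KO, at 250, 265 and 248 CPM, were close together, against 238, 346 and 433 CPM where the field says WT. On the log2 scale the fold change was -0.18 (SE 0.23, -0.70 to 0.33) by library name and -0.42 (SE 0.20, -0.85 to 0.02) by genotype field, with unadjusted p of 0.454 and 0.0604 in edgeR's test. Its upstream window is shown because Ccn1 is a target of YAP and its partner TEAD, and here holds a match to the TEAD motif.
Ccn1, chr3:145649986-145650235, minus strand: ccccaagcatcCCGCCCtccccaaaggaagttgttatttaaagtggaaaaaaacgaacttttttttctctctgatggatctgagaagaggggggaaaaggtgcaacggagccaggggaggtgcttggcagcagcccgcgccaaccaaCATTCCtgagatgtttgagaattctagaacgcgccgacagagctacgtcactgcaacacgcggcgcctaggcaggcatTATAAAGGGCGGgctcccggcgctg
The capitals mark, from left to right, a GC box, the TEAD motif as CATTCC (103 to 98 bases before the start), and a TATA box (25 to 20 bases before it) followed directly by a second GC box. The TEAD motif is in 12.6% of all such windows.

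Ccn2, the most abundant member and a target of TGF-beta signalling that promotes matrix production, was lowest in KO replicate 1. It had 629, 1048 and 1063 CPM in the libraries labelled KO replicate 1, 2 and 3, against 1066, 1225 and 1310 CPM in those labelled WT replicate 1, 2 and 3. Every library labelled KO lay below every library labelled WT, but KO replicate 3 (95% Poisson interval 1049 to 1077) and WT replicate 1 (1050 to 1081) overlap in counting error. Of all genes tested, 2.62% had every library labelled KO below every other. The log2 fold change was -0.39 (SE 0.21, -0.85 to 0.06; unadjusted p = 0.0815, adjusted p = 1.00 in edgeR) by library name and -0.01 (SE 0.24, -0.54 to 0.52) by genotype field. Without KO replicate 1 it was -0.18 by library name and 0.26 by genotype field. Per kb, Ccn2 was 1.77, 3.11 and 2.17 times Ccn1 in the libraries labelled KO replicate 1, 2 and 3, against 1.74, 3.26 and 3.74 times in those labelled WT replicate 1, 2 and 3.

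**Figure D2:**
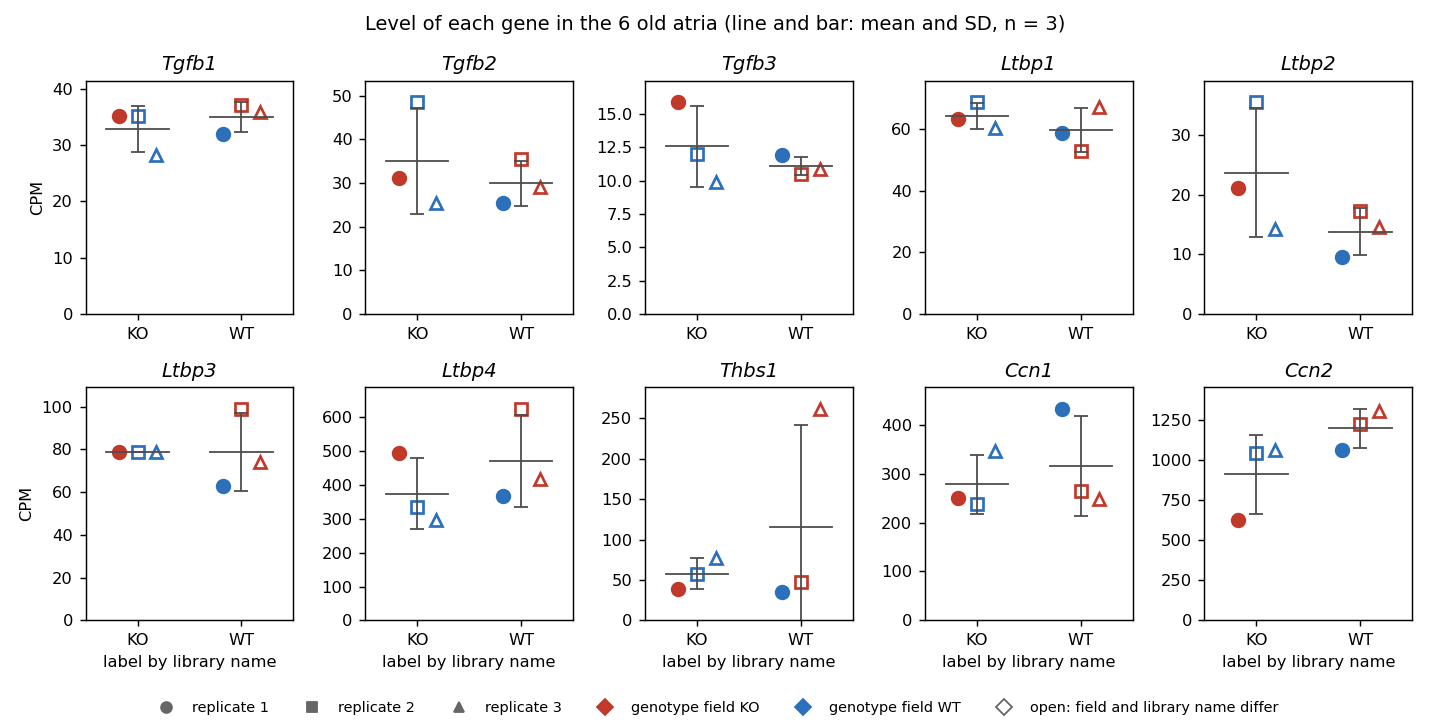
Level in CPM of each gene in the 6 libraries, grouped by library name with KO left of WT; lines and bars are the mean and SD (n = 3), symbol shape gives the replicate and colour the genotype field, open where the field and the library name differ. Thbs1 in WT replicate 3 (262 CPM), Ltbp2 and Tgfb2 in KO replicate 2 (35.5 and 48.5 CPM) and Ccn2 in KO replicate 1 (629 CPM) stand away from the rest, and all 3 red symbols of Ltbp4 lie above the blue ones.

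No member passed the test in either reading. By library name 5 of the 10 were higher and 5 lower with the label KO, with a median log2 fold change of -0.04, where 45.5% of all genes tested were higher and the median was -0.02. Of 14708 genes, 0 passed (0% called), and 219 (1.49%) had an unadjusted p under 0.05, among them 1 member, Ltbp2. DESeq2 and limma-voom also called 0 members and 0 genes, with 1 and 0 members below 0.05 unadjusted. Read by genotype field, 5 members were higher and 5 lower, with a median of 0.07, where 48.1% of all genes were higher and the median was -0.01. Here 2 genes passed (0.0136%), and the unadjusted p was under 0.05 for 837 (5.69%), 1 member among them, Ltbp4. DESeq2 called 27 genes and limma-voom 1, of which 0 were members, with 2 and 1 members below 0.05 unadjusted. With the replicate number as a block 51 genes passed in this reading, 0 of them members. The groups did not overlap for 1 member in each reading, Ccn2 by library name and Ltbp4 by genotype field, against 5.95% (3.33% above and 2.62% below) and 12% (7.48% above and 4.49% below) of all genes tested. For Tgfb1, Tgfb3, Ltbp1 and Ltbp3 the 95% intervals of both readings lie within -0.43 to 0.67 on the log2 scale. For Thbs1 they run from -3.28 to 3.22.

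**Figure D3:**
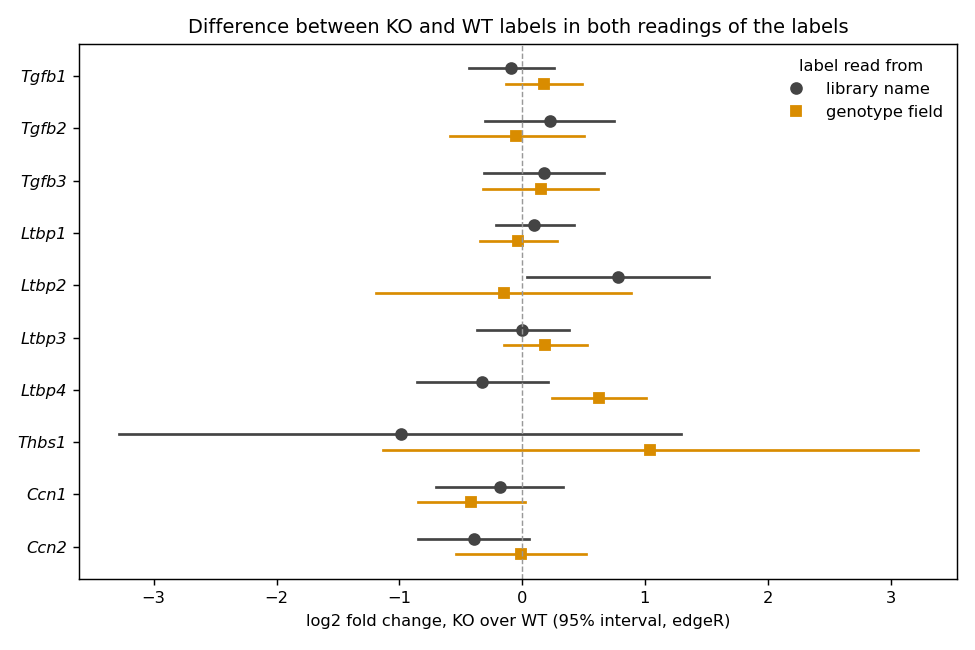
Log2 fold change of each gene, KO over WT, with its 95% interval from edgeR, in black circles for labels read from the library name and orange squares for the genotype field (3 libraries against 3). The interval of Ltbp2 by library name (0.04 to 1.52) and that of Ltbp4 by genotype field (0.24 to 1.01) leave out 0 before adjustment over all genes, and that of Thbs1 is the widest.

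Between libraries, the members followed several separate patterns. The range from lowest to highest library was 7.43-fold for Thbs1, 3.71-fold for Ltbp2, 2.12-fold for Ltbp4, 2.08-fold for Ccn2, 1.92-fold for Tgfb2 and 1.82-fold for Ccn1, all above the 1.65-fold median of the genes tested. Tgfb3, Ltbp3, Tgfb1 and Ltbp1 stayed below it at 1.60, 1.57, 1.31 and 1.3-fold. The genes closest in pattern to Ltbp2 were Myl9, a myosin light chain of smooth muscle, Ism1 and the protease inhibitor A2m, at a root mean square difference of 0.18, 0.18 and 0.20 on the log2 scale, where the median over all candidates was 0.62. Those closest to Ltbp4 were Tmub1, Tada3 and Ccdc124, at 0.08, 0.10 and 0.10 where the median was 0.41. These are the nearest of 10531 genes over only 6 libraries and are given as a description.

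**Figure D4:**
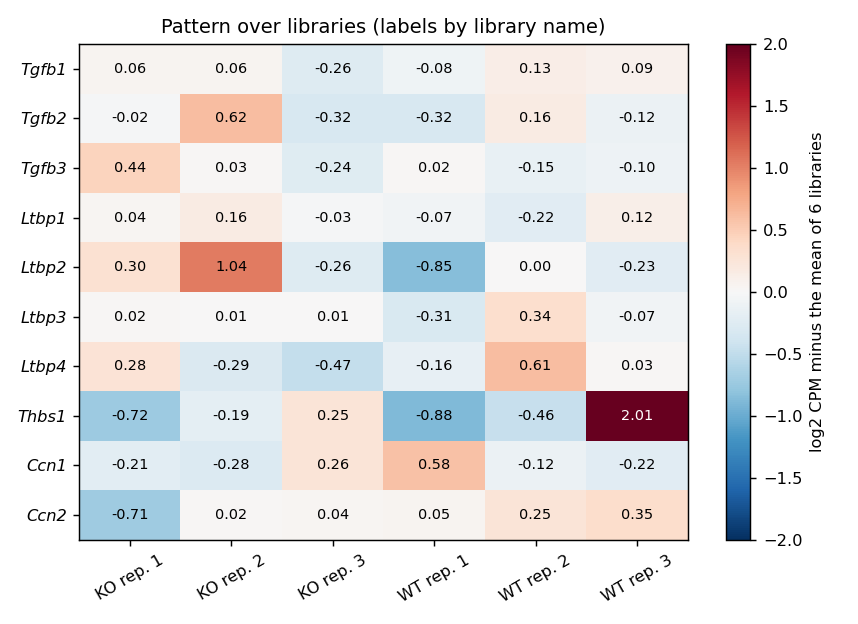
Log2 CPM of each gene minus its mean over the 6 libraries, labelled by library name, on a scale from blue (low) to red (high) with the value in each cell. The extremes are Thbs1 in WT replicate 3 (2.01), Ltbp2 in KO replicate 2 (1.04) and WT replicate 1 (-0.85), and Thbs1 in WT replicate 1 (-0.88).

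Tgfb2 was highest in the libraries where the median was highest for the genes that TGF-beta is known to induce; this relation was looked for after the values were seen. The target list holds 12 genes, of which 11 were tested, among them the collagens Col1a1, Col1a2 and Col3a1 and the SMAD feedback gene Pmepa1. The median of their centred log2 CPM was -0.03, 0.58 and -0.40 in the libraries labelled KO replicate 1, 2 and 3, against -0.50, 0.50 and -0.03 in those labelled WT replicate 1, 2 and 3. Across the 6 libraries Tgfb2 gave Pearson's r = 0.92 (exact permutation p = 0.00556, two-sided) and Spearman's rho = 0.89 (exact permutation p = 0.0333). Adjusted over the 10 members these were 0.0556 and 0.194, so the relation did not pass. Without the 2 libraries farthest from the median, KO replicate 2 and WT replicate 2, r was 0.94. The summed CPM of the targets was a further summary, also chosen after the values were seen. With it r was 0.93 (exact permutation p = 0.00139, adjusted 0.0139) and rho was 1.00 (exact permutation p = 0.00278, adjusted 0.0278). Only with this summary was the adjusted permutation p under 0.05. The adjustment covers the 10 members and not the choice of list and summary, so no conclusion is drawn from it. Prkce was lower in KO replicates 1 and 2 and WT replicate 2 (9.20, 5.15 and 11.7 CPM) than in the other libraries (28.6 to 36.2 CPM). Tgfb2 had 31.2, 48.5 and 35.4 CPM in these libraries and 25.3 to 29.0 CPM in the others. Ltbp2 had 21.2, 35.5 and 17.3 CPM against 9.48 to 14.6 CPM. The other members overlapped across this split. How many of all genes part these libraries was not counted, and the part of Prkce level was not tested.

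Of the other members Ltbp2 had r = 0.80 (exact permutation p = 0.0542, adjusted 0.226), Tgfb1 r = 0.75 (0.0903, adjusted 0.226) and Ccn1 r = -0.79 (0.0903, adjusted 0.226), with rho = 0.83, 0.77 and -0.83 (exact permutation p = 0.0583, 0.103 and 0.0583, adjusted 0.194, 0.258 and 0.194). Without the same 2 libraries r was 0.79 for Ltbp2, 0.80 for Tgfb1 and -0.98 for Ccn1. Ccn2, itself a known target, had r = 0.13 and rho = 0.03 (exact permutation p = 0.836 and 1.00), and Thbs1 had r = -0.01 and rho = 0.37 (exact permutation p = 0.990 and 0.497). KO replicate 1 and WT replicate 1 alone form one series of library names, and the other series holds 4 libraries, so no value is given within a series; the r without 2 libraries also rests on 4 and has no test. Adipocyte markers, all 6 detected, were also highest in KO replicate 2 and WT replicate 2, at 88.0 and 120 CPM, where the other libraries had 17.0 to 64.6 CPM. The list medians of centred log2 CPM were highest in the same 2 libraries for smooth muscle and pericyte markers (0.17 and 0.13, others -0.18 to 0.03). The same held for macrophage (0.13 and 0.29, others -0.30 to 0.10), fibroblast (0.04 and 0.07, others -0.15 to 0) and Schwann cell markers (0.19 and 0.57, others -0.31 to 0.11). It did not hold for endothelial, platelet, mesothelial, atrial and ventricular myocyte, or valve and cartilage markers. Among the pathway lists below it held for matrix genes (0.26 and 0.30) and superfamily ligands (0.43 and 0.23), among others, but not for receptors or SMADs. In the smooth muscle and pericyte list, the myosin Myh11 had 50.3 and 50.4 CPM in these 2 libraries and 29.3 to 33.1 CPM in the others. Rgs5 was also highest in KO replicate 2 and Kcnj8 in WT replicate 2. Cnn1 was instead highest in KO replicate 1, Abcc9 in WT replicate 1 and Smtn in WT replicate 3. This list summed to 878 CPM in WT replicate 3, against 843 and 865 CPM in KO replicate 2 and WT replicate 2. The target list holds the smooth muscle genes Acta2 and Tagln. Fibroblast markers summed to 3014, 3327 and 3166 CPM in the libraries labelled KO replicate 1, 2 and 3 and 3180, 4162 and 3306 CPM in those labelled WT replicate 1, 2 and 3, with 5 of 6 detected and Tcf21 listed at 0. Gsn made up most of the fibroblast sum, at 2813 ± 132 CPM with the label KO and 3154 ± 542 CPM with the label WT. The part of these marker lists in the relation of Tgfb2 to the targets was not tested. In whole atria fewer cells of a type and less RNA per cell cannot be told apart.

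**Figure D5:**
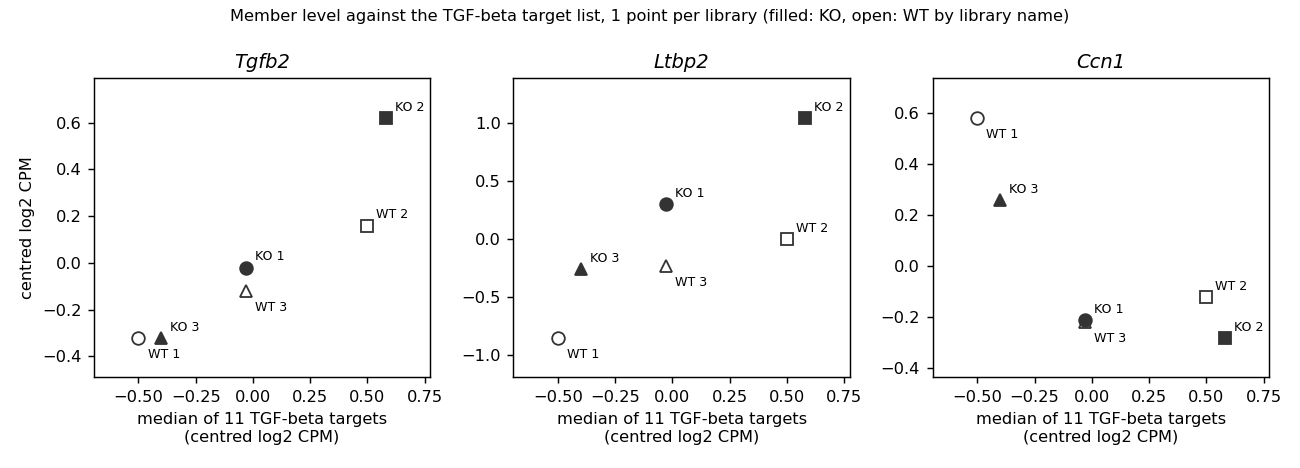
Centred log2 CPM of Tgfb2, Ltbp2 and Ccn1 against the median centred log2 CPM of 11 TGF-beta targets, 1 point per library, filled for KO and open for WT by library name. Tgfb2 lies along a rising line (r = 0.92), Ltbp2 is more scattered (r = 0.80), and Ccn1 is highest in WT replicate 1 and KO replicate 3, where the targets are lowest.

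The rest of the pathway was read from lists, and no gene of them passed in either reading. Levels are means ± SD with n = 3 libraries each. Of 7 receptors and co-receptors, 1 was higher and 6 lower by library name (median -0.08), and 3 higher and 4 lower by genotype field (median -0.03). The decoy receptor Bambi had 22.0 ± 1.05 CPM with the label KO and 27.2 ± 3.91 CPM with the label WT, and a log2 fold change of 0.02 by genotype field. The co-receptor Tgfbr3 had 82.2 ± 8.35 and 91.0 ± 15.6 CPM by library name, and -0.10 on the log2 scale by genotype field. For the type I receptor Tgfbr1 the values were 23.6 ± 3.29 CPM with the field KO and 28.5 ± 1.45 CPM with the field WT, and 0.01 on the log2 scale by library name. The endothelial co-receptor Eng had 512 ± 17.5 and 435 ± 48.2 CPM by genotype field, and -0.05 on the log2 scale by library name.

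Of 9 SMADs and their brakes, 2 were higher and 7 lower by library name (median -0.18), and 7 higher and 2 lower by genotype field (median 0.10). Smad6, an inhibitory SMAD, had log2 fold changes of -0.42 (SE 0.20) by library name and 0.53 (SE 0.17) by genotype field. Ski, a repressor of SMADs, had -0.22 (SE 0.15) and 0.12 (SE 0.15), and Smurf1, a ubiquitin ligase of the pathway, -0.10 (SE 0.17) and 0.15 (SE 0.16), in the same order of readings. All 3 were thus opposite in direction between the readings, while Smurf2 (-0.18 and -0.09) and Smad2 (0.08 and 0.04) kept theirs. For Smad3, Smad7 and Smurf2 every library labelled KO lay below every library labelled WT, as for 2.62% of all genes tested. The list summed to 377 to 424 CPM with the label KO and 447 to 452 CPM with the label WT. By genotype field the sums overlapped, at 424 to 448 CPM with KO and 377 to 452 CPM with WT.

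Of 13 genes that process or activate latent TGF-beta, 4 were higher and 9 lower by library name (median -0.05), and 9 higher and 4 lower by genotype field (median 0.10). Lrrc32, which tethers latent TGF-beta to the cell surface, had 37.3 ± 4.54 CPM with the label KO and 56.5 ± 17.8 CPM with the label WT, and by genotype field 57.8 ± 15.6 CPM with KO and 36.0 ± 3.84 CPM with WT. Itgb6, part of an activating integrin, had 9.61 ± 1.49 CPM with the label KO and 6.94 ± 0.333 CPM with the label WT, and by genotype field 7.22 ± 0.665 CPM with KO and 9.34 ± 1.96 CPM with WT. Bmp1, a protease that cuts latent complexes from the matrix, had 62.0 ± 9.65 CPM with the field KO and 47.9 ± 5.02 CPM with the field WT, and by library name 52.0 ± 6.62 CPM with KO and 57.9 ± 14.1 CPM with WT. These 3 also turned direction with the reading.

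Of 7 tested matrix genes that hold or bind the complex, 1 was higher and 6 lower by library name (median -0.10), and 6 higher and 1 lower by genotype field (median 0.32). Emilin1, an elastic fibre protein that restrains TGF-beta maturation, had 46.5 ± 4.87 CPM with the field KO and 27.2 ± 5.93 CPM with the field WT, which is 0.78 higher on the log2 scale (SE 0.18; edgeR gave adjusted p = 0.595). By library name it had 31.6 ± 11 CPM with KO and 42.1 ± 11.5 CPM with WT. Fmod, a small proteoglycan that binds TGF-beta, had log2 fold changes of -0.16 (SE 0.18) by library name and 0.32 (SE 0.16) by genotype field.

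Of the 11 tested TGF-beta targets, 7 were higher and 4 lower by library name (median 0.01), and 8 higher and 3 lower by genotype field (median 0.21); Timp1, whose gene body lies wholly within another gene, is listed at 0. Col1a1 had 179 ± 48.8 CPM with the field KO and 109 ± 44.3 CPM with the field WT, and a log2 fold change of -0.26 (SE 0.39) by library name. Pmepa1 had 59.2 ± 12.9 and 45.1 ± 8.06 CPM by genotype field, and -0.18 (SE 0.22) by library name. The matricellular Postn had 0.29 (SE 0.31) by library name and -0.24 (SE 0.32) by genotype field.

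Of 6 tested targets of YAP and SRF, the regulators that also drive Ccn1 and Ccn2, 1 was higher and 5 lower by library name (median -0.06), and 4 higher and 2 lower by genotype field (median 0.05). On the log2 scale the receptor kinase Axl had -0.15 (SE 0.15) by library name and 0.03 (SE 0.15) by genotype field, and the adhesion protein Vcl -0.41 (SE 0.41) and -0.19 (SE 0.44). Ajuba had -0.08 (SE 0.25) by library name and 0.26 (SE 0.23) by genotype field, and Nuak2 -0.04 (SE 0.27) and 0.25 (SE 0.24). Cavin2 is listed at 0.

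Of the other CCN and thrombospondin genes, 6 were tested, with 4 higher and 2 lower by library name (median 0.10) and 3 higher and 3 lower by genotype field (median 0.16). Ccn5 had 67.8 ± 22.3 CPM with the label KO and 53.9 ± 39.4 CPM with the label WT, and a log2 fold change of 0.32 (SE 0.55) by genotype field. Ccn4 had 24.4 ± 6.50 and 22.2 ± 5.28 CPM by library name, and -0.03 (SE 0.24) by genotype field. Comp had 75.6 ± 20.0 CPM with the field KO and 53.7 ± 23.0 CPM with the field WT, and -0.06 (SE 0.35) by library name. Thbs4 had 3.49 ± 0.625 and 4.62 ± 1.74 CPM by genotype field, and 0.11 (SE 0.35) by library name. Thbs3 is listed at 0.

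Of 8 tested ligands of the wider superfamily, 3 were higher and 5 lower by library name (median -0.02), and 4 each way by genotype field (median 0.03), with Inhba listed at 0. Bmp10, the ligand of atrial myocytes, had 4260 ± 1153 CPM with the label KO and 3414 ± 1356 CPM with the label WT. By genotype field the direction was the opposite, with 3231 ± 1166 CPM for KO and 4443 ± 1116 CPM for WT, a difference of -0.46 (SE 0.29) on the log2 scale. Inhbb had log2 fold changes of -0.74 (SE 0.43) by library name and 0.58 (SE 0.46) by genotype field, and the muscle growth inhibitor Mstn -0.07 (SE 0.49) and -0.79 (SE 0.43).

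Of 15 immediate early genes, a class that includes quick responders like Ccn1, 3 were higher and 12 lower by library name (median -0.13), and 11 higher and 4 lower by genotype field (median 0.22). By library name and by genotype field, Klf4 had log2 fold changes of -0.42 (SE 0.14) and 0.22 (SE 0.17), and Egr3 -0.64 (SE 0.28) and 0.09 (SE 0.35). Junb had -0.47 (SE 0.35) and 0.98 (SE 0.19), and Ier3 -0.32 (SE 0.16) and 0.33 (SE 0.14). All 4 turned direction with the reading.

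The summed levels of the cell type markers overlapped between the groups in both readings, except for the ventricular list by genotype field. With labels from the library name, the ventricular list summed to 609 to 1065 CPM for KO and 759 to 1140 CPM for WT. By library name macrophage markers summed to 413 to 484 CPM with the label KO and 354 to 549 CPM with the label WT, and endothelial markers to 783 to 915 and 838 to 932 CPM. Smooth muscle and pericyte markers summed to 804 to 843 and 833 to 878 CPM, and mesothelial markers to 138 to 200 and 188 to 241 CPM. Schwann cell markers summed to 43.8 to 55.0 and 47.3 to 63.7 CPM, and valve and cartilage markers to 6.41 to 8.92 and 6.06 to 10.4 CPM, with Chad listed at 0. By genotype field macrophage markers summed to 435 to 549 CPM with KO and 354 to 484 CPM with WT, endothelial markers to 783 to 932 and 797 to 915 CPM, and smooth muscle and pericyte markers to 836 to 878 and 804 to 843 CPM. Mesothelial markers summed to 138 to 241 CPM with the field KO and 172 to 200 CPM with the field WT, Schwann cell markers to 43.8 to 63.7 and 52.5 to 55.5 CPM, and valve and cartilage markers to 7.89 to 10.4 and 6.06 to 8.92 CPM.

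Of 5 tested platelet markers, 0 were higher and 5 lower by library name (median -0.98), and 2 higher and 3 lower by genotype field (median -0.09). The largest changes by library name were in genes of low level. Gp9 averaged 0.409 CPM with the label KO and 1.05 CPM with WT, Tubb1 0.588 and 1.39, and Ppbp 3.97 and 7.93. Pf4, the most abundant, averaged 37.2 and 38.4 CPM, a log2 fold change of -0.05. Of 6 mesothelial markers, 0 were higher and 6 lower by library name (median -0.34), and 6 higher and 0 lower by genotype field (median 0.08). Macrophage markers had 2 higher and 4 lower by library name (median -0.04), and 5 higher and 1 lower by genotype field (median 0.21). In edgeR's test 0 genes of these 3 lists passed. By library name 0, 2 and 0 were below 0.05 unadjusted, where 1.49% of all genes tested were. By genotype field 0, 0 and 1 were, where the share of all genes tested was 5.69%. The part of these 3 lists in the levels of the members was not tested.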

How the data were processed

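RNA of flash-frozen atria was extracted with RNeasy columns and made into TruSeq RNA v2 libraries, per the labels' protocols. The authors deposited raw read counts for each Ensembl gene, made with FastQC 0.11.5, MultiQC 1.7, HISAT2 2.1.0, featureCounts 1.5.0-p3 and build GRCm38, per the submitters' processing notes. The sources used here do not give the annotation release, feature type or strand setting. Symbols and positions come from GENCODE M21 (GRCm38), matched for 54723 of 54838 genes, and promoter windows from RefSeq GRCm38.p6, which had entries for 7 of the 10 members; Tgfb3, Thbs1 and Ccn2 had none.

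Differences were tested with edgeR 4.0.16 in R 4.3.3 (quasi-likelihood F test, robust, TMM, filterByExpr, two-sided, Benjamini-Hochberg over 14708 genes, threshold 0.05), checked on simulated data. Each SE was obtained from the log2 fold change and the F statistic, as |log2 fold change| divided by the root of F. CPM is the count over the TMM-scaled library size (factors 0.946 to 1.028), and centred log2 CPM uses a prior count of 2. Poisson intervals cover counting error only. P-values of the fits are judged against the spread between mice of the same label. That spread also holds any differences in Prkce level, Y-linked level and name series. Permutation p-values rest on reorderings of the 6 libraries and measure no spread within a label. Alternatives were DESeq2 1.42.0, limma-voom (limma 3.58.1), RLE scaling, no low-count filter, covariates and left-out libraries. Grouping by library name was the main reading and the genotype field the second. Replicate numbers come from the titles; deviations of same-numbered libraries from their group means correlated at 0.121 to 0.162 by library name and 0.121 to 0.269 by genotype field, so the numbers were also fitted as a block.

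Genes named are the members, Prkce and the 2 genes of each pathway list with the smallest p in a reading (marker lists are given by counts and summed levels), with the 3 closest patterns (mean CPM of at least 5) for the 3 members of widest range; any other gene was chosen after its values were seen. A gene that this rule names is not reported here. Members and lists were chosen with earlier results of these data known.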

Additional observations from a re-analysis of the deposited data

How the results depend on the processing

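Of 300 alternative values of the members' fold changes, 270 kept their direction and 30 reversed it, and in all 15 alternatives of each reading 0 members passed. The number of genes passing by library name, 0, became 1 with no low-count filter, 4 with Y-linked expression as a covariate, 3 in the numbered series alone and 6 without the libraries at odds with Prkce, and 0 to 4 when 1 library was left out. By genotype field the 2 genes became 27 with DESeq2, 1 with limma-voom, 25 with no filter, 7 with the name series as a covariate and 51 with the replicate block, and 0 to 2 when 1 library was left out; the block changed no other call. By library name the log2 fold change reversed to -0.07 for Ltbp1 and 0.17 for Ccn1 with the Y-linked covariate, to -0.13 for Ltbp3 and 0.19 for Ccn1 in the numbered series, and to 0.05 for Tgfb1 and 0.08 for Ltbp4 without the libraries at odds with Prkce. By genotype field it reversed for Tgfb2 to 0.03 and Ltbp2 to 0.09 with limma-voom, to 0.02 and 0.04 with the replicate block, and to 0.39 and 0.68 without the libraries at odds with Prkce. It also reversed to -0.39 for Thbs1 without those libraries, and to -0.03 for Tgfb3 and 0.26 for Ccn2 in the numbered series. Leaving out 1 library at a time gave, by library name, -0.15 to 0.01 for Tgfb1, -0.08 to 0.42 for Tgfb2, -0.02 to 0.33 for Tgfb3, -0.14 to 0.21 for Ltbp3, -0.57 to -0.06 for Ltbp4, -1.42 to 0.50 for Thbs1, -0.37 to 0.12 for Ccn1 and -0.52 to -0.18 for Ccn2. By genotype field it gave -0.21 to 0.33 for Tgfb2, -0.07 to 0.25 for Tgfb3, -0.11 to 0.05 for Ltbp1, -0.49 to 0.57 for Ltbp2, -0.39 to 1.45 for Thbs1 and -0.19 to 0.26 for Ccn2. The causes were not tested. The relation of Tgfb2 with the targets had an adjusted permutation p under 0.05 only with their sum (r = 0.93), not with their median. Both were chosen after the values were seen, and the adjustment does not cover that choice. The numbered series holds 4 libraries, split the same way with the labels exchanged in the 2 readings.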
